A study of Mus musculus with 4 samples.

Results

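The genes described here are 38 imprinted genes outside the axis of insulin-like growth factors, taken from a list of genes that are expressed mainly or only from the allele of 1 parent. They lie in 15 imprinted clusters or single loci on autosomes, 17 of them on chromosome 7. By the direction known for each gene, 20 are expressed from the paternal allele and 18 from the maternal allele. Of the 22298 genes in the deposited count table, 33 were members. The long noncoding RNAs Meg3, Rian, Mirg, Kcnq1ot1 and Airn had no row there (97.7% of the rows were protein-coding genes) and were not analysed here. The filter on low counts left 28 members among 12888 genes tested.

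Imprinting is set in the germ line by DNA methylation of control regions, which is kept through development by factors such as ZFP57, ZFP445 and TRIM28, and it leaves 1 parental copy of a gene silent. Many paternally expressed genes promote fetal growth and many maternally expressed genes restrain it. Several act in adipose and muscle development, among them Dlk1 (preadipocyte factor 1), Mest, Ndn, Grb10, Cdkn1c and Plagl1. For 10 of the members, imprinting is known in only some tissues (such as Ube3a in neurons) or is partial. The libraries give the summed level of both alleles, so that allelic expression was not measured.

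RNA-seq was performed on brown adipose tissue (BAT) of C57BL/6 fetuses (C57BL/6J mice in the study's methods), labelled male, at E18.5, late in gestation. Dams had sterilized tap water (control) or water with 20% (w/v) fructose (fructose) in gestation, with 2 libraries per group. The question was how maternal fructose changed the transcriptome of fetal BAT. The sources used here do not give the number of fetuses or litters behind a library, so p-values measure only the spread between libraries, which may be technical.

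Counts on genes totalled 18542897 to 19224529 in control and 22461298 to 23645147 in fructose. In sum, 4 Y-linked genes reached 422 and 390 counts in control but 0 in either fructose library, although all 4 libraries are labelled male, so diet and this difference cannot be told apart in any value below. The BAT label was met by Ucp1, at 9606 to 12425 CPM (a gene's counts relative to the total of its library, after TMM normalization) in all libraries. Ucp1, Adipoq and 8 other markers of brown adipocytes summed to 21381 to 24934 CPM. The study counts Adipoq, Pparg and Fabp4 among these as common adipogenic genes, so the sum is not particular to brown fat. Skeletal muscle markers (11 genes) summed to 255 and 352 CPM in control and 825 and 620 CPM in fructose, and all 11 were higher. Muscle progenitor markers (5 genes) summed to 0.897 and 1.55 CPM in control and 3.45 and 4.57 CPM in fructose. In fructose, though not in control, most of this was Myog, the only one called. Myog had 0.422 and 0.665 CPM in control and 1.81 and 2.82 CPM in fructose. Myf6 was tested and not called, and Pax7, Myf5 and Myod1 were too low to be tested. Myod1 had 0.317 and 0.333 CPM in control and 0.354 and 0.408 CPM in fructose. In bulk tissue, more cells of a type and more RNA per cell cannot be told apart. Erythroid markers summed to 19185 and 15263 CPM in control and 11746 and 12127 CPM in fructose. Neuron markers, which matter for the imprinted genes known from brain, were at 1.55 to 2.77 CPM in sum, nearly all of it from Stmn2. The other 4 neuron markers reached at most 0.133 CPM in a library, and Elavl4 was at 0 in all. Over 12884 tested genes whose transcript length was known, the log2 fold change rose with that length (Spearman's rho 0.50) and fell with GC content (rho -0.50), which are correlations across genes and not across replicates. Values with both trends removed therefore stand beside the members below.

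In fructose, 8 of the 28 tested members were higher and 6 were lower than in control, and 14 were not called. The higher members were Ppp1r9a, Impact, Plagl1, Ube3a, Rtl1, Zim1, Peg3 and Peg10, with log2 fold changes between 0.49 and 1.69. The lower members were Commd1, Dlk1, Sgce, Blcap, Ndn and Cd81, with log2 fold changes between -0.48 and -0.24. Calls are from edgeR's quasi-likelihood test at a Benjamini-Hochberg adjusted p under 0.05 over all tested genes. Among all 12888 tested genes, 15.5% were higher and 10.7% were lower by the same rule. The members' shares were 28.6% and 21.4%, and their median log2 fold change was 0.03, beside 0.0025 over all tested genes. No test of the list was made. In all 14 called members the fructose libraries did not overlap the control libraries. Over all 28, this held for 13 higher members (33.4% of tested genes) and 12 lower members (31.6%).

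The counts of called members depended on the processing. With the trends of length and GC content removed from each library, 3 members were higher (3.91% of tested genes) and 4 were lower (4.12%). The called higher members had a median transcript length of 7180 bases and the called lower members one of 4055, beside 3433 bases over all tested genes. Ppp1r9a, Impact, Plagl1 and Commd1 kept their call under all 16 alternatives tried. Ube3a, called higher, turned to a negative log2 fold change once both trends were removed. Leaving out fructose library 1 reduced the count of lower members, and the count of lower genes among all tested genes fell too. With another threshold, an unadjusted p under 0.05 and a fold change above 1.3, 8 members were higher (17.6% of tested genes) and 4 were lower (6.18%). Scaling also moved the balance over all genes. Of all calls 59.2% were higher in the main fit, 72.3% were higher with scaling by library size only, and 85.9% were higher with library sizes that left out mitochondrial and haemoglobin genes, which moved the median over all tested genes to a log2 fold change of 0.13.

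**Figure D1:**
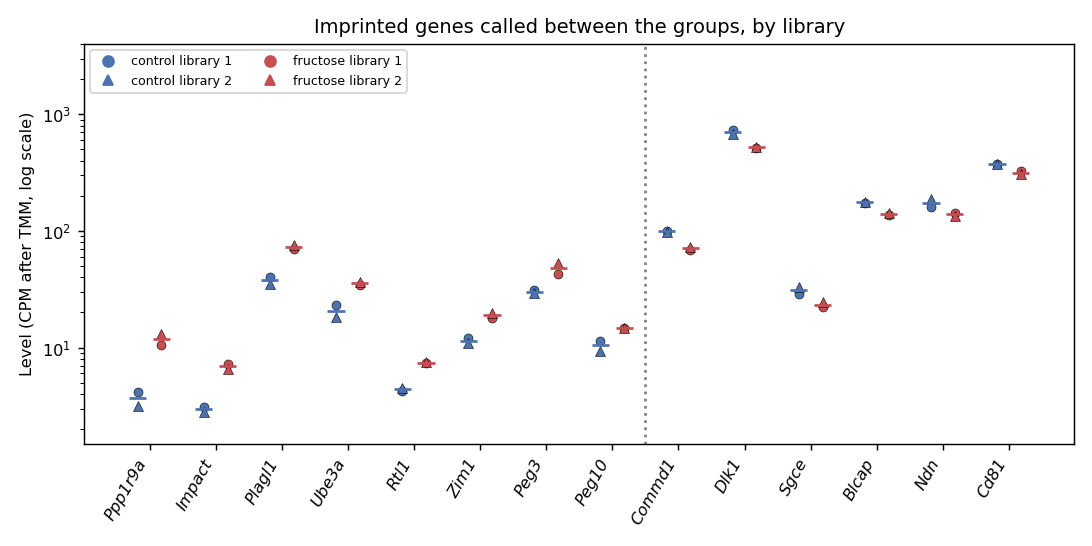
Level of each called member in each library, in CPM after TMM normalization on a log axis. Each point is 1 library (2 control, 2 fructose), and the bars mark the group means. All 14 genes show 2 groups that do not overlap, and Ube3a loses its direction when length and GC trends are removed.

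The plot of levels by library shows that the changes were small against the range of the members' own levels. Scaled by the length of the longest annotated transcript, control levels were highest for Cd81 (233 CPM per kb), Mest (194), Dlk1 (152), Blcap (83.7), Cdkn1c (64.6), Ndn (47.1) and Grb10 (29.1). These 7 genes were also the members with a group mean of at least 100 CPM, and none of the 8 higher members was among them. The largest control level among the higher members was that of Plagl1, with 7.17 CPM per kb.

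Plagl1 encodes a zinc-finger transcription factor (ZAC1) that arrests the cell cycle and acts on other imprinted genes, and it is expressed from the paternal allele on chromosome 10 (chr10:13060504-13131694, GRCm38). It had 40.6 and 34.8 CPM in the control libraries and 69.6 and 75.2 CPM in the fructose libraries. The group levels were 37.7 ± 4.07 and 72.4 ± 3.96 CPM (SD, n = 2), so that both fructose libraries lay well above both controls. Plagl1 thus was higher by 0.94 on the log2 scale (standard error 0.10, edgeR adjusted p = 0.00019), and by 0.69 (adjusted p = 0.0023) with both trends removed. The part of the muscle markers, which were higher in fructose too, was not tested.

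The promoter of Plagl1 is shown because it lies in a CpG-rich imprinting control region whose maternal copy is methylated, and because methylated TGCCGC is the hexamer that ZFP57 binds. The promoter of Peg3, another paternally expressed gene that was higher, is shown beside it as one without the hexamer in the window shown. Both are RefSeq sequences of GRCm38.p6, from 250 bases before to 50 bases after the transcript start, and capitals mark TGCCGC or its reverse complement GCGGCA.
Plagl1, chr10:13090582-13090881, plus strand: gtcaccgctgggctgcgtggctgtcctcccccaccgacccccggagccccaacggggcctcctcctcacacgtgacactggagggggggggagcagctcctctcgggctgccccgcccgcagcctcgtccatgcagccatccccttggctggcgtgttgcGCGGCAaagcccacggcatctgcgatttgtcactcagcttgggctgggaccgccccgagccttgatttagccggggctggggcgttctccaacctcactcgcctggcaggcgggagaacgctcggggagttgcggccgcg
Peg3, chr7:6730370-6730669, minus strand: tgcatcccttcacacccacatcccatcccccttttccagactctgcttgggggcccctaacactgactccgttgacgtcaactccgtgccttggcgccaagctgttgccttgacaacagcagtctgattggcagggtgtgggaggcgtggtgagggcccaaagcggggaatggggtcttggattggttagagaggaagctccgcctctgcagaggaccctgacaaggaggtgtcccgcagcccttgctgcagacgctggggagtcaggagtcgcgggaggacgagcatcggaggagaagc

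The window at Plagl1 held 26 CpG dinucleotides and 1 hexamer, and that at Peg3 held 13 CpG dinucleotides and 0 hexamers. Of 46 RefSeq promoters of 32 members, 21.7% held TGCCGC on either strand, beside 11.6% of all 32851 promoters of this length. The hexamer itself contains a CpG, and the median number of CpG dinucleotides was 11.5 in members' promoters and 7 in all promoters. Overlapping promoters of a gene, such as Mest, were counted apart. The part of CpG content in these shares was not tested. Promoters of paternally and of maternally expressed members held the hexamer equally often, 5 of 23 each. Such a match is a description of the letters and not a binding site, and the lack of one holds for the window only.

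Peg3, Usp29 and Zim1 lie side by side on chromosome 7. Peg3 encodes a zinc-finger protein involved in growth, stress responses and maternal behaviour, and Zim1 encodes another zinc-finger protein, expressed from the other (maternal) allele. Peg3 (chr7:6703892-6730431) had 31.1 and 29.4 CPM in control and 42.8 and 53.1 CPM in fructose. Zim1 (chr7:6671269-6696450) had 12.03 and 10.92 CPM in control and 18.04 and 19.92 CPM in fructose. Both genes of this pair of opposite parental origin were thus higher, with log2 fold changes of 0.67 for Peg3 (standard error 0.11, edgeR adjusted p = 0.0019) and 0.73 for Zim1 (0.13, adjusted p = 0.0032).

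With both trends removed neither was called. Peg3 then had a log2 fold change of 0.24 (edgeR adjusted p = 0.19) and Zim1 one of 0.14 (adjusted p = 0.55). For Zim1 this rested on the transcript taken. With the shortest principal isoform (1740 in place of 7693 bases), an alternative chosen after seeing the data, it was 0.81 (adjusted p = 0.0064). Usp29, a deubiquitinase gene that starts head-to-head with Peg3, had only 2, 4, 7 and 9 counts and was not tested.

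The Dlk1-Dio3 cluster on chromosome 12 gave 1 member of each direction, both expressed from the paternal allele. Dlk1 encodes a transmembrane protein with epidermal growth factor repeats that restrains adipogenesis in preadipocytes. It stood at 736 and 674 CPM in control and 511 and 528 CPM in fructose (chr12:109452823-109463336). Both fructose libraries lay below both controls, at 519 ± 11.7 against 705 ± 43.8 CPM (SD, n = 2). The log2 fold change was -0.44 (standard error 0.09, edgeR adjusted p = 0.0041) and hardly moved with both trends removed (-0.45, adjusted p = 0.011). With trends set by the shortest principal isoform (1703 in place of 4653 bases, chosen after seeing the data) it was -0.17 (adjusted p = 0.27), and the call was lost. Fibroblast and preadipocyte markers, the cells in which Dlk1 is best known, summed to 4063 and 3472 CPM in control and 3998 and 4034 CPM in fructose, and most of this sum was Col1a1 and Col3a1. Of these 8 markers, 7 had a positive log2 fold change, and Dpp4 (1.20) and Postn (1.01) were called higher. With both trends removed none of the 8 was called. Dpp4 then had 0.74 (edgeR adjusted p = 0.16) and Postn 0.26 (adjusted p = 0.14), and the median of the 8 was 0.02. The part of these markers in the Dlk1 difference was not tested.

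Rtl1 (chr12:109589193-109600330) encodes a protein derived from a retrotransposon that is needed in fetal capillaries of the placenta and in fetal muscle. It had 4.27 and 4.55 CPM in control and 7.43 and 7.47 CPM in fructose, and neither pair overlapped the other. Its log2 fold change was 0.76 (standard error 0.19, edgeR adjusted p = 0.012). It was 0.62 (adjusted p = 0.053) with both trends removed and 0.75 (adjusted p = 0.059) without fructose library 2, and both ended the call. Rtl1 was higher together with the skeletal muscle markers, whose part in this difference was not tested.

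The antisense strand of Rtl1, expressed from the maternal allele, carries 6 miRNA genes with 11 mature miRNAs, which are known to guide cleavage of the paternal Rtl1 transcript. Because they lie opposite its coding sequence, all 11 were exactly complementary to the 6358-base Rtl1 transcript there. Each had a seed of its own. They are shown, 1 per gene, because a transcript of the maternal allele targets that of the paternal allele through them. Capitals mark the seed, bases 2 to 8, and the sequences are from RefSeq (GRCm38.p6).
mmu-miR-431-5p: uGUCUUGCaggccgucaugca
mmu-miR-433-3p: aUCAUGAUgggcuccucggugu
mmu-miR-127-3p: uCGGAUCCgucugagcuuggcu
mmu-miR-434-3p: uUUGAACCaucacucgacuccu
mmu-miR-432: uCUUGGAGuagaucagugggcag
mmu-miR-136-5p: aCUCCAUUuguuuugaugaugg
Levels of these miRNAs were not measured in the libraries. Where reads were counted without regard to strand, transcripts of both strands would have been added to Rtl1, and the treatment of strand is not given in the sources used here.

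Within the libraries, the log2 ratio of Rtl1 to Dlk1 counts was -7.43 and -7.21 in control and -6.11 and -6.14 in fructose, a difference of 1.20. Both genes are paternally expressed and their nearest ends are 126 kb apart. With 2 libraries against 2, an exact permutation test cannot go below p = 0.333, so such ratios are given as values.

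The Peg10-Sgce cluster on chromosome 6 also moved in both directions. Peg10, a retrotransposon-derived gene required in the placenta, had 11.5 and 9.43 CPM in control and 14.6 and 14.7 CPM in fructose (chr6:4747306-4760517). Sgce, which encodes epsilon-sarcoglycan of the dystrophin-associated complex, had 28.5 and 33.4 CPM in control and 22.2 and 24.4 CPM in fructose (chr6:4674350-4747207). Peg10 was thus higher and Sgce lower, although both are paternally expressed and start head-to-head, 0.099 kb apart. The log2 ratio of Peg10 to Sgce was -1.32 and -1.82 in control and -0.60 and -0.73 in fructose. That this ratio did not overlap between groups followed from the levels of Peg10 and Sgce themselves and is no separate result.

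By edgeR, the log2 fold change of Peg10 was 0.49 (standard error 0.15, adjusted p = 0.031) and that of Sgce was -0.41 (standard error 0.11, adjusted p = 0.021). The call of Peg10 ended with both trends removed (0.17, adjusted p = 0.52), under DESeq2's Wald test (0.48, adjusted p = 0.081) and without control library 2 (0.36), fructose library 1 (0.49) or fructose library 2 (0.49). Sgce reached -0.99 (adjusted p = 0.0018) with both trends removed. Its call ended without control library 2 (-0.29) or fructose library 1 (-0.34), with scaling by library size only (-0.35, adjusted p = 0.050) and with library sizes without mitochondrial and haemoglobin genes (-0.28, adjusted p = 0.11).

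Ppp1r9a, in the same cluster (chr6:4902917-5165661), encodes neurabin 1, an actin-binding protein that targets protein phosphatase 1, and its imprinting is known from only some tissues. It had the highest fold change of the tested members. Its levels were 4.17 and 3.16 CPM in control and 10.5 and 13.1 CPM in fructose, which makes 3.66 ± 0.713 and 11.8 ± 1.89 CPM (SD, n = 2). The log2 fold change was 1.69 (standard error 0.20, edgeR adjusted p = 0.00034), and 1.18 (adjusted p = 0.0041) with both trends removed. The part of the muscle markers in this difference was not tested. Asb4, which encodes a substrate receptor of a ubiquitin ligase, was low in all libraries and was not called (log2 fold change 0.36).

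**Figure D2:**
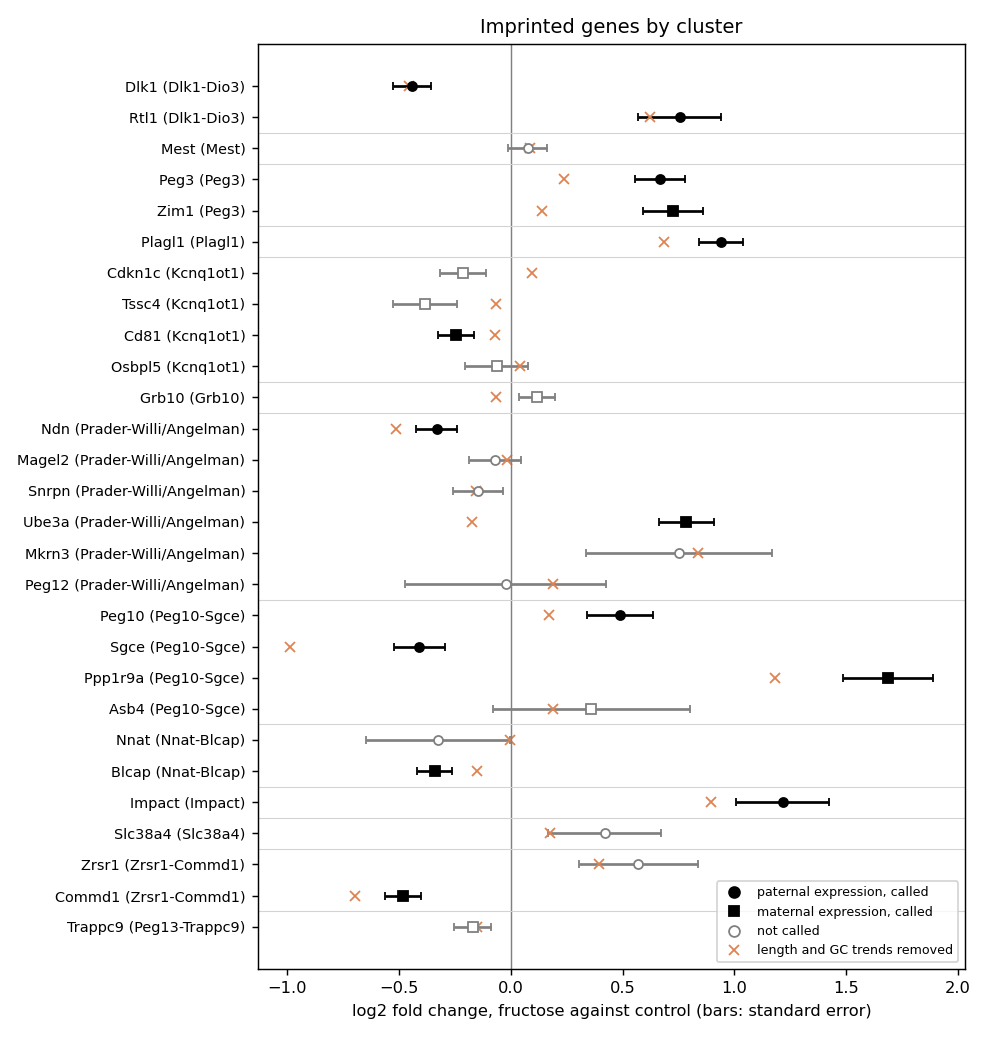
Log2 fold change of the 28 tested members (fructose against control, bars 1 standard error of the edgeR fit) by imprinted cluster, with paternally and maternally expressed genes marked. Clusters such as Dlk1-Dio3 and Peg10-Sgce hold members on both sides of 0, while both tested genes of the Peg3 cluster lie above 0; with length and GC trends removed, Ube3a, Grb10, Cdkn1c, Peg12 and Osbpl5 change sign.

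As the plot of fold change by cluster shows, members of either parental origin lay on both sides of 0. Of 16 tested members with paternal expression, 5 (31.3%) were higher and 3 (18.8%) lower, with a median log2 fold change of 0.25. Of 12 with maternal expression, 3 (25.0%) were higher and 3 (25.0%) lower, with a median of -0.12. The shares over all tested genes were 15.5% and 10.7%. With both trends removed, 2 paternally expressed members were higher and 3 lower, and 1 maternally expressed member was higher and 1 lower. The 20 tested members imprinted in most tissues gave 6 higher (30%) and 3 lower (15.0%), and the 8 with tissue-limited or partial imprinting gave 2 higher (25.0%) and 3 lower (37.5%). With both trends removed the former gave 2 higher and 3 lower, and the latter 1 higher and 1 lower. These differences between kinds of member were not tested.

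The Prader-Willi/Angelman cluster on chromosome 7 had 6 tested members. Ube3a encodes a ubiquitin ligase that is expressed from the maternal allele in neurons and from both alleles in most other tissues. It had 23.1 and 18.1 CPM in control and 34.4 and 36.7 CPM in fructose (chr7:59228750-59311536), and its log2 fold change was 0.79 (edgeR adjusted p = 0.0013, standard error 0.12). With 9856 bases and a GC content of 36.9%, its transcript was the longest and the poorest in GC of the tested members, and with both trends removed the log2 fold change was -0.17 (adjusted p = 0.34). Ube3a overlaps the antisense transcript Snhg14 on the other strand, so reads of either may have been counted on it.

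Ndn encodes necdin, a protein of the MAGE family that slows proliferation and holds back adipocyte differentiation. It had 161 and 187 CPM in control and 143 and 133 CPM in fructose (chr7:62346569-62350262). The log2 fold change was -0.33 (standard error 0.09, edgeR adjusted p = 0.022), and -0.51 (adjusted p = 0.012) with both trends removed. The call ended with library sizes without mitochondrial and haemoglobin genes (-0.20, adjusted p = 0.11) and without control library 2 (-0.22) or fructose library 2 (-0.28). The other MAGE gene of the cluster, Magel2, was not called (-0.07), and neither were Snrpn, which encodes a core protein of the spliceosome (-0.15), Peg12 (-0.02) and the ubiquitin ligase gene Mkrn3 (0.75, adjusted p = 0.20). Snrpn shares its transcript with Snurf. Among the neuron markers, Stmn2 was above Peg12 in every library, at 1.41 to 2.55 CPM. It was also above Mkrn3 except in fructose library 1, where Stmn2 had 1.41 CPM and Mkrn3 had 1.55 CPM. The part of neuronal RNA in the levels of this cluster was not tested.

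In the Kcnq1ot1 cluster, also on chromosome 7, all 7 members with a row are maternally expressed, and 1 of 4 tested was called. Cd81 encodes a tetraspanin that also marks adipocyte progenitors. It had 377 and 372 CPM in control and 327 and 306 CPM in fructose (chr7:143052739-143067934), that is -0.24 on the log2 scale (standard error 0.08, edgeR adjusted p = 0.045). This call was the least stable of the 14, held in 5 of 16 alternatives. It ended without fructose library 1 (-0.29, adjusted p = 0.11) or fructose library 2 (-0.20, adjusted p = 0.35), and with both trends removed the value was -0.07.

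Cdkn1c encodes p57, an inhibitor of cyclin-dependent kinases that limits fetal growth. It had 137 and 109 CPM in control and 108 and 104 CPM in fructose, and was not called (log2 fold change -0.21, edgeR adjusted p = 0.15). Control library 1 stood above the other 3 libraries, and without control library 2 the value was -0.37 (adjusted p = 0.0017). Tssc4, which encodes a factor of spliceosome assembly, had 17.8 and 21.4 CPM in control and 16.3 and 13.8 CPM in fructose. It passed the threshold on the unadjusted p and fold change, but not the adjusted one (-0.38, adjusted p = 0.065; -0.51, adjusted p = 0.0055 without control library 1). Osbpl5 had a log2 fold change of -0.06. Phlda2 (0, 0, 2 and 0 counts), Ascl2 (4, 1, 2 and 0) and Slc22a18 (9, 9, 9 and 6), known mainly from placenta, trophoblast and epithelia, were too low to be tested.

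Impact encodes an inhibitor of the kinase GCN2, which senses a lack of amino acids, and is paternally expressed. It had 3.11 and 2.83 CPM in control and 7.25 and 6.57 CPM in fructose. The groups were well apart, and the log2 fold change was 1.21 (edgeR adjusted p = 0.0021, standard error 0.21), and 0.90 (adjusted p = 0.022) with both trends removed.

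At the Zrsr1-Commd1 locus on chromosome 11, Commd1, which encodes a protein of copper transport and of NF-kB control, was the member with the lowest fold change. It had 101 and 97.2 CPM in control and 69.3 and 72.5 CPM in fructose (chr11:22896136-22982382). The log2 fold change was -0.48 (standard error 0.08, edgeR adjusted p = 0.0019), and -0.70 (adjusted p = 0.00083) with both trends removed. Zrsr1, a splicing factor gene that lies inside Commd1 on the other strand (chr11:22972005-22976496) and is expressed from the other allele, was not called (0.57, adjusted p = 0.13). Its reads may be shared with the X-linked paralog Zrsr2. The log2 ratio of Zrsr1 to Commd1 was -5.28 and -4.99 in control and -4.35 and -3.88 in fructose.

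Blcap and Nnat share a locus on chromosome 2 in the same manner, with Nnat inside Blcap on the other strand. Blcap, a gene linked to growth arrest and apoptosis, had 175 and 178 CPM in control and 136 and 143 CPM in fructose (chr2:157556362-157571274), that is -0.34 on the log2 scale (standard error 0.08, edgeR adjusted p = 0.0094). The call ended at -0.15 (adjusted p = 0.28) with both trends removed, at -0.21 (adjusted p = 0.071) with library sizes without mitochondrial and haemoglobin genes, and at -0.30 (adjusted p = 0.087) without fructose library 1. Nnat, which encodes a small proteolipid of the endoplasmic reticulum, had a log2 fold change of -0.33 and was not called. The log2 ratio of Blcap to Nnat lay between 6.54 and 6.61 in all 4 libraries and overlapped between groups.

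**Figure D3:**
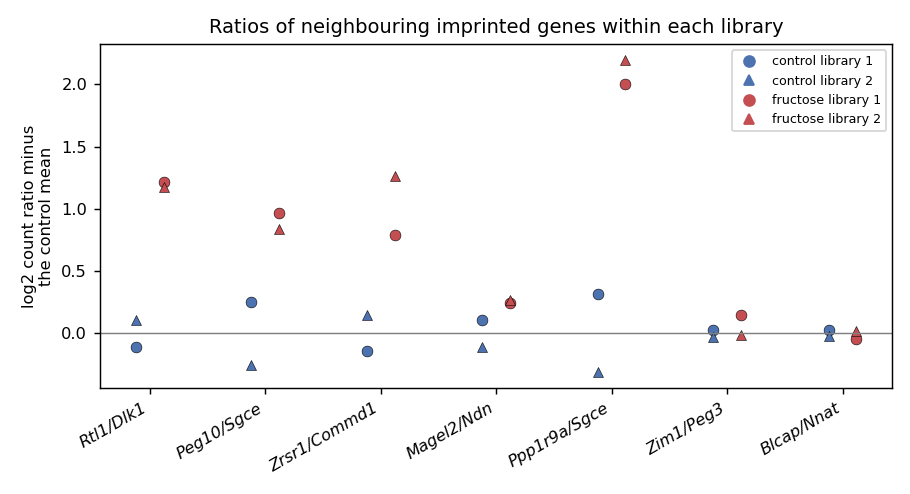
Log2 ratio of the counts of neighbouring members in each library (2 control, 2 fructose), each centred on the mean of its control libraries. The ratios of Zim1 to Peg3 and Blcap to Nnat overlapped. Those of Ppp1r9a and Peg10 to Sgce, Rtl1 to Dlk1 and Zrsr1 to Commd1 were higher in both fructose libraries, which the levels of the single genes already required.

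The neighbours in the plot of ratios were paired after their values were seen. Where a gene was higher and its neighbour lower in both fructose libraries, their ratio had to lie apart. The widest gap was that of Ppp1r9a to Sgce, at -2.78 and -3.40 in control and -1.08 and -0.89 in fructose. The ratio of Zim1 to Peg3 was -1.37 and -1.43 in control and -1.25 and -1.42 in fructose, so that this pair kept nearly the same proportion while both genes were higher. A ratio within a library does not depend on its scaling, but it keeps any trend with length or GC content.

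Mest and Grb10, abundant single-locus members, were not called. Mest encodes an enzyme of the alpha/beta hydrolase family that is known to go with the size of adipocytes in mice. It had 518 and 514 CPM in control and 568 and 518 CPM in fructose (log2 fold change 0.07, edgeR adjusted p = 0.55). Grb10 encodes an adaptor that inhibits signalling by the insulin receptor. It had 150 and 145 CPM in control and 164 and 156 CPM in fructose (0.12, adjusted p = 0.30), and library sizes without mitochondrial and haemoglobin genes made it higher (0.25, adjusted p = 0.033), while it was -0.07 with both trends removed. Slc38a4, an amino acid transporter gene (0.42), and Trappc9, a gene of vesicle transport (-0.17), were not called, and Rasgrf1 had 0 counts in all libraries.

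**Figure D4:**
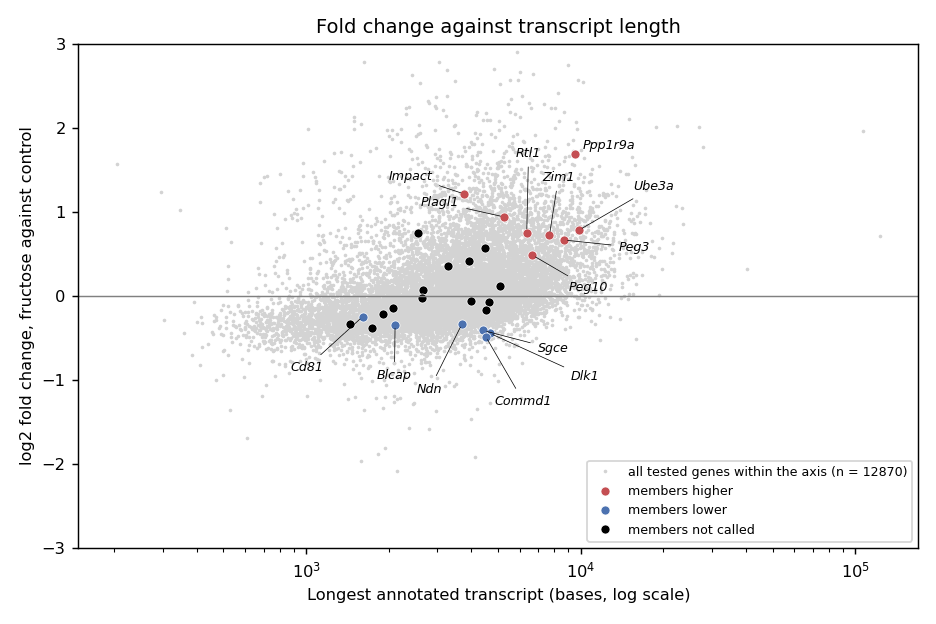
Log2 fold change against the length of the longest annotated transcript (log axis) for the tested genes in grey and for the members in colour. The higher members lie between 3763 and 9856 bases and the lower ones between 1607 and 4653 bases.

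The plot against transcript length shows the members beside all tested genes. With the length trend removed, Dlk1 (-0.58), Commd1 (-0.61), Sgce (-0.53) and Ndn (-0.38) were more negative than in the main fit. Blcap (-0.21) and Cd81 (-0.06) were less negative. Ppp1r9a, Impact and Plagl1 remained higher with both trends removed, and Commd1, Dlk1, Sgce and Ndn remained lower. Impact, of 3763 bases, was the shortest of the higher members. Genes of the mitochondrial genome took up 5.89% and 6.49% of control counts and 10.8% and 11.2% of fructose counts. The part of length, GC content or RNA quality in the members' differences was not tested beyond these fits.

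A list of other imprinted genes was set beside the members. Of 47 further imprinted genes listed, 34 were tested, of which 6 (17.6%) were higher and 3 (8.82%) lower, beside 15.5% and 10.7% of all tested genes. Their median log2 fold change was 0.05. The higher ones were Gatm (1.03), Casd1 (0.88), Zdbf2 (0.82), Ampd3 (0.59), Atp10a (0.51) and Slc22a3 (0.49), and the lower ones were H13 (-0.40), Bcl2l1 (-0.35) and Gnas (-0.30). Casd1 lies beside Sgce in the Peg10 cluster. With both trends removed, 1 of the 34 was higher (Casd1, 0.65, edgeR adjusted p = 0.049) and 2 were lower. The lower ones were H13 (-0.44, edgeR adjusted p = 0.021) and Pon2 (-0.60, adjusted p = 0.012), and Pon2 was not called in the main fit (-0.17). Bcl2l1 (-0.15) and Gnas (-0.17) lost their calls. Among those not called in the main fit, Cmah had the highest value (1.06, adjusted p = 0.12) and Gpr1 the lowest (-0.41, adjusted p = 0.49).

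Of 11 factors that keep imprints, 10 were tested. Zfp445, which encodes a zinc-finger protein that binds methylated control regions, was higher, with 5.33 and 5.10 CPM in control and 14.8 and 19.3 CPM in fructose (chr9:122844529-122866006). Its log2 fold change was 1.71 (standard error 0.17, edgeR adjusted p = 0.00018), and 1.25 (adjusted p = 0.0015) with both trends removed. Smchd1, a chromatin protein of the structural maintenance of chromosomes family, was higher (0.80, adjusted p = 0.010). Trim28, the corepressor that zinc-finger proteins of this kind recruit (-0.38, adjusted p = 0.0059), and Ehmt2, a histone methyltransferase gene (-0.33, adjusted p = 0.010), were lower. With both trends removed the values were 0.24 for Smchd1, -0.19 for Trim28 and -0.18 for Ehmt2. The other 6 tested, Zfp57, Setdb1, Dnmt1, Uhrf1, Ctcf and Eed, were not called.

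**Figure D5:**
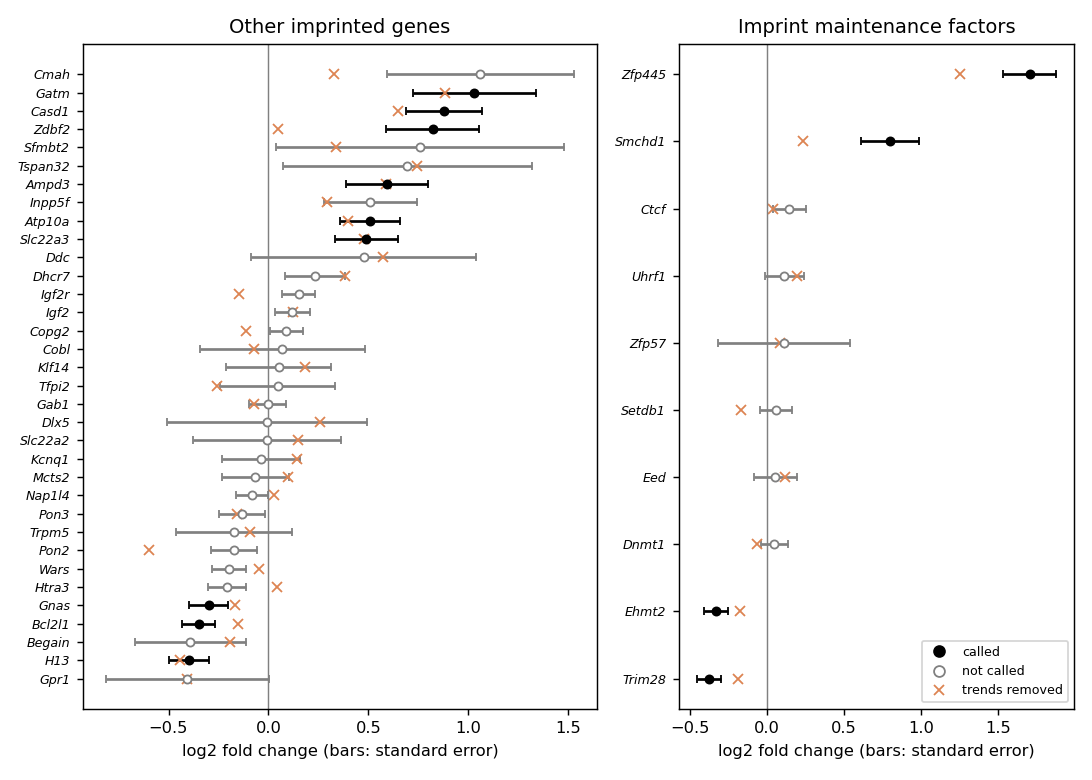
Log2 fold change (fructose against control, bars 1 standard error) of the tested genes from the list of other imprinted genes and of the tested imprint maintenance factors. Zfp445 stands highest of the maintenance factors at 1.71, the medians of both lists lie near 0, and crosses give the values with length and GC trends removed, under which Igf2r and Copg2, among others not called, change sign.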

How the data were processed

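RNA-seq counts of 4 libraries of fetal BAT (2 control, 2 fructose) were used. Per the submitters' processing notes and the study's methods, the authors filtered reads with fastp, mapped them to mm10 with Bowtie2 2.0.0.5 and TopHat2 2.0.0, assembled transcripts with StringTie 2.2.0, merged them with Cuffmerge and took the count of each gene from the merged file. The deposited values are raw read counts per gene, neither normalized nor pooled. The program that counted, any reference annotation used in merging, and the treatment of strand and of reads matching several genes are not given in the sources used here, so overlapping genes and paralogs are uncertain. Ensembl identifiers were matched to GENCODE M21 (GRCm38), and 43 of 22298 had no match. The single-library tables held the same counts as the joint table.

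The 38 members and all lists were chosen with earlier results of these data known. Genes kept by filterByExpr (12888) were tested with edgeR 4.0.16 (R 4.3.3), quasi-likelihood, two-sided, TMM, no covariate, Benjamini-Hochberg adjustment over all tested genes, and called at an adjusted p under 0.05. Common dispersion was 0.00726, a biological coefficient of variation of 8.52%. The threshold of the study's methods (p under 0.05, fold change above 1.3) was applied beside it. A count of 0 allows up to 0.122 to 0.166 CPM (3 counts, counting error only). Libraries of a group differed beyond sampling noise (chi-square per degree of freedom 13.1 in control and 8.49 in fructose). Fits were tested on simulated data.

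All 38 members are accounted for. Values in every library are given for members called at the adjusted threshold, members passing the study's threshold, and members with at least 100 CPM in either group. Other imprinted genes and imprint maintenance factors are named where called, with the highest and lowest fold change not called. Alternatives were DESeq2 1.42.0, its size factors, library size only, other count filters, a replicate block, length and GC trends removed (lowess, span 0.3), library sizes without mitochondrial and haemoglobin genes, and each library left out. Trends set by the shortest principal isoform were added after seeing the data. Where 1 library was left out, the lone library of its group was assumed to vary like the other group.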

Additional observations from a re-analysis of the deposited data

How the results depend on the processing

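The main fit called 8 members higher, 6 members lower and 3380 of all tested genes. Members higher were 3 with the length trend removed, 5 with the GC trend removed, 3 with both, 3 with both and the replicate block, and 4 with trends of the shortest principal isoform (chosen after seeing the data). Members lower were 2 with library sizes without mitochondrial and haemoglobin genes, and 3 with the shortest isoform. All genes called were 2161 (length), 2223 (GC), 1035 (both), 1260 (both with block) and 966 (shortest isoform). With 1 library left out, members higher ranged from 6 to 8, members lower from 3 (without fructose library 1) to 7, and all calls from 1692 (without fructose library 2) to 3925. The replicate block alone left 8 members higher and 5 lower (Cd81 lost, adjusted p = 0.062) and 3558 genes called. Same-numbered libraries did not deviate together (correlation -0.027), so the numbers were not read as a pairing. DESeq2 gave 7 members higher and 6 lower, beside 1370 higher and 1063 lower among all tested genes.

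Sign changes of the log2 fold change touched 7 members, of which only Ube3a was called in the main fit. Peg12 was 0.036 with library size only, 0.043 (length), 0.14 (GC), 0.19 (both, with and without block), 0.10 (sizes without mitochondrial and haemoglobin genes) and 0.14 (shortest isoform), and ranged from -0.30 (without fructose library 1) to 0.22 (without fructose library 2) with 1 library left out, 0.012 without control library 2. Grb10 was -0.069 (length), -0.067 (both, with and without block) and -0.11 (shortest isoform). Mest was -0.035 (GC) and -0.0061 (shortest isoform). Osbpl5 was 0.089 (GC), 0.039 (both), 0.042 (both with block), 0.067 (sizes without mitochondrial and haemoglobin genes), 0.0019 (shortest isoform) and 0.048 without control library 1. Magel2 was 0.10 (GC) and 0.060 (sizes without mitochondrial and haemoglobin genes). Cdkn1c was 0.095 (both), 0.10 (both with block) and 0.048 (shortest isoform). Ube3a was -0.17 (both, with and without block) and -0.31 (shortest isoform). The cause was not tested. Low counts limit Peg12, Asb4, Mkrn3 and Nnat, whose levels were under 2 CPM, and 5 members could not be tested.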

Other observations

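Protein-coding genes on neither imprinted list, with any part within 500 kb outside a cluster of at least 3 members, were set beside the members. Of 19 tested, 3 (15.8%) were higher, namely Clcn4 (log2 fold change 0.56), Tnnt3 (1.42) and Pdk4 (0.53), and 1 (5.26%), Mrpl23, was lower (-0.58), beside 15.5% and 10.7% of all tested genes. Their median was 0.18. Tnnt3, a troponin gene of fast skeletal muscle, is one of the skeletal muscle markers above. Tnnt3 and Mrpl23 lie within 500 kb of the Kcnq1ot1 cluster, with the imprinted gene Igf2 in between. Gm49394, a flanking gene that was not called, overlaps Igf2 itself. Pdk4, a kinase gene that restrains pyruvate oxidation, lies beside the Peg10-Sgce cluster. The Peg3 cluster had 10 tested flanking genes, of which 1 was higher, with a median of 0.23. The Dlk1-Dio3 cluster had 1, which was not called (-0.29), and the Prader-Willi/Angelman cluster had none tested. No difference between members and flanking genes was tested.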
